A study of Mus musculus with 9 samples.

Results

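Gene expression in the hearts of doxorubicin model mice was compared with that in control hearts, using 6 of the 9 libraries of a study of doxorubicin-induced dilated cardiomyopathy. The comparison covers every gene with a mean of at least 0.5 FPKM over the 9 libraries, which is 12500 of the 29237 genes in the deposited table. FPKM is a count of fragments divided by transcript length and by the number of fragments mapped in that library. The labels describe the tissue as heart and the mice as wild-type, of strain C57BL/6 and aged 8 to 12 weeks. The 3 libraries of the first group are labelled control and those of the second DOX, and the design text calls these groups normal and DOX model. The labels give no dose, route or day of doxorubicin, no sex, and no statement on whether replicates came from separate animals, and the p-values below therefore reflect spread among these samples, which may be technical. The other 3 libraries (TPTN) entered the fit only to help estimate that spread.

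Doxorubicin is an anthracycline that poisons type II topoisomerases, cycles between redox states and binds iron, and it is used against many cancers. Heart muscle cells depend on dense mitochondria for contraction, and they are the cells in which the drug's dose-limiting injury appears as loss of contractile force. In rodents the model is commonly followed by natriuretic peptide genes, by genes of the fetal heart program, by p53 targets and by antioxidant genes, and these groups are described below along with the genes that changed most.

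Several features separated the libraries before any test. Markers of ventricular muscle were abundant throughout, with the 11 genes summing to 13286, 11974 and 12509 FPKM in control and 13318, 15096 and 14275 in DOX. DOX replicate 1 also carried atrial muscle transcripts. The 14 atrial markers summed to 115, 69.2 and 167 FPKM in control and 2611, 312 and 217 in DOX, and without Nppa to 21.1, 18.1 and 20.05 FPKM in control and 875, 24.4 and 21.4 in DOX. Myl7, the atrial regulatory light chain, stood at 539 FPKM in DOX replicate 1 and between 0 and 0.764 in the other 5 libraries. Bmp10, a growth factor of the atria, stood at 66.3 FPKM there and at or under 0.0635 elsewhere, and Sln at 85.3 against at most 0.0693. Fibroblast markers summed to 603 FPKM in DOX replicate 1 and to between 363 and 428 in the other 5. Gsn alone gave 439 of the 603 FPKM, and read 242 to 284 in the other 5. Some other members, such as Dcn, were also highest in DOX replicate 1, while Mfap5 and Postn lay below all control libraries there. In such bulk samples, more cells of a type and more RNA per cell cannot be told apart. Mitochondrially encoded transcripts made up 49.8, 50.9 and 50.4% of all FPKM in control and 46.2, 46.05 and 44.7% in DOX. A further 19.5, 19.7 and 19.2% in control and 18.2, 18.3 and 17.95% in DOX was assigned to 7 nuclear copies of mitochondrial genes. Such copies can share reads with the mitochondrial genes, and how reads were split between them was not tested. The level of an 18S ribosomal RNA-related transcript was 1086, 2403 and 1227 FPKM in control and 3369.9, 4018 and 5722 in DOX, with no overlap between the groups. The part of these shares in the results below was not tested, apart from the scaling without mitochondrial genes. The correlation of log2 values across genes was 0.986 to 0.989 between control libraries, 0.982 to 0.991 between DOX libraries and 0.978 to 0.987 between the groups.

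Of the 12500 genes, 279 were higher in DOX hearts (2.23%) and 50 were lower (0.4%), by limma's moderated test on log2(FPKM + 1), where the threshold was an adjusted p of 0.05 by Benjamini and Hochberg's method. Changes were small. The median log2 change was 0.43 among the genes that rose and -0.48 among those that fell, and 72 and 22 of them changed by at least 0.5. All 3 DOX libraries lay above all 3 control libraries in 2209 genes (17.7%) and below them in 637 (5.1%), so the shift towards higher values ran through many genes that did not pass the test. At an unadjusted p under 0.05, 14.6% of all genes were higher and 3.47% lower, which is the background for the unadjusted counts of lists below. For counts past the threshold the background is 2.23% and 0.4%, and for libraries without overlap 17.7% and 5.1%. In all 329 genes that passed, the groups did not overlap. The median log2 change over all genes tested was 0.04, and 62.8% of them had a positive value, the background for counts of signs below. Coding genes made up 220 of the rises and 27 of the falls, pseudogenes 52 and 2, and mitochondrially encoded genes 0 and 12. The counts depended on single libraries. With control replicate 1 left out, 173 genes were higher and 32 lower. Leaving out control replicate 2 gave 2 and 0, and leaving out control replicate 3 gave 4 and 0. The counts were 5 and 2 when DOX replicate 2 was dropped, 74 and 17 when it was DOX replicate 3, and 172 and 32 when it was TPTN replicate 3. Without DOX replicate 1, the library with atrial transcripts, 257 genes were higher and 57 lower, and 207 of all these calls were shared with the 329 reported.

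**Figure D1:**
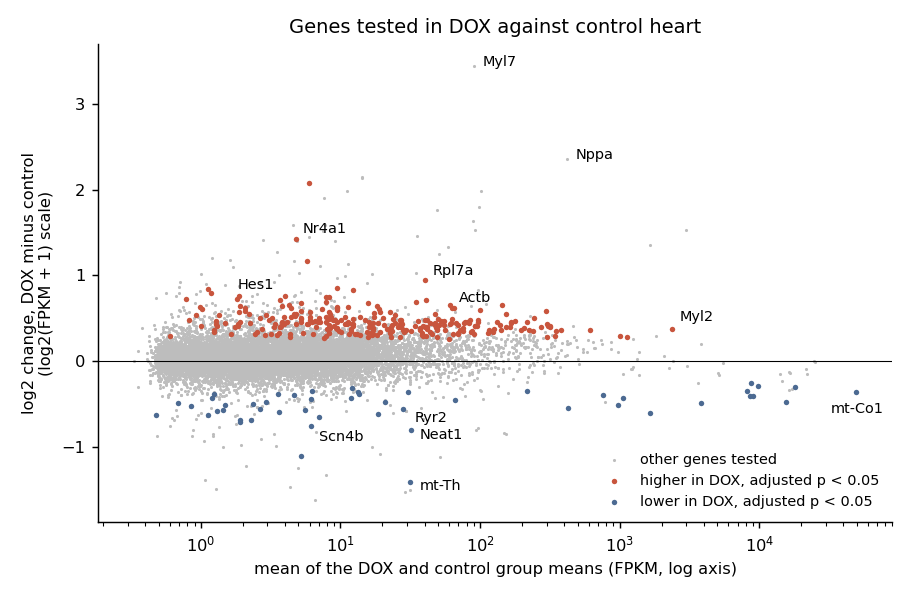
Each point is 1 of the 12500 genes tested, placed by its mean FPKM over the DOX and control groups (log axis) and its log2 change, DOX minus control; red and blue points passed the adjusted p threshold. Most of the 279 rises lie between 0.26 and 1 on the log2 scale, the mitochondrial transcripts at the far right lie below 0, and Myl7 and Nppa are high without passing the test.

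Immediate early genes, which cells switch on within minutes of a stimulus, had among the highest list medians. Of 29 tested, 3 rose (2.23% of all genes) and none fell, and 9 lay above control in all libraries (17.7%). The median log2 change was 0.33, positive under each of the 3 other scalings (0.22 to 0.29) and 0.32 without DOX replicate 1. Nr4a1, a nuclear receptor that acts without a known ligand, stood at 3.15, 1.39 and 2.04 FPKM in control and 7.62, 6.82 and 7.72 in DOX (log2 change 1.43 with an SE of 0.16, adjusted p = 0.015). Its lowest DOX library was above its highest control library by more than the spread within either group. Arl4d, a small GTPase of the Arf family, stood at 6.08, 6.25 and 4.75 FPKM in control and 10.9, 10.4 and 9.25 in DOX (log2 change 0.75 with an SE of 0.10, adjusted p = 0.015). The transcription factor gene Csrnp1 read 2.26, 1.63 and 2.11 FPKM in control and 3.699, 3.39 and 2.72 in DOX (log2 change 0.51 with an SE of 0.11, adjusted p = 0.0357), and it no longer passed the test under any of the 3 other scalings (adjusted p = 0.0512 to 0.0921). Others with a small p were Ier2 (log2 change 0.43, adjusted p = 0.0517), Jund (0.44, adjusted p = 0.0646), Dusp5 (0.61, adjusted p = 0.0667) and Atf3 (0.93, adjusted p = 0.107), which did not pass although their groups did not overlap. In Atf3, a stress-induced factor, control replicate 1 at 2.76 FPKM came close to DOX replicate 2 at 2.85.

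Many immediate early genes are controlled through the cyclic AMP response element, which reads TGACGTCA in full. Its core is TGACG on one strand, which is the same as CGTCA when read on the opposite strand. The sequences of the 3 genes that rose are shown for that reason, as the 250 bases before the start site in RefSeq (GRCm38.p6), 5′ to 3′ on the gene's own strand, with every core or full site in capitals.
Nr4a1, chr15:101266596-101266845 (plus strand): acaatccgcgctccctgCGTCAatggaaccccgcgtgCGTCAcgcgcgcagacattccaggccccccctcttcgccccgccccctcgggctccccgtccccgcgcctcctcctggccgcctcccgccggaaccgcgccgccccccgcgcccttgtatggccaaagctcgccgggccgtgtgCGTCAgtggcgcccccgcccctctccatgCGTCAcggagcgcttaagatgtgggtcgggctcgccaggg
Arl4d, chr11:101665291-101665540 (plus strand): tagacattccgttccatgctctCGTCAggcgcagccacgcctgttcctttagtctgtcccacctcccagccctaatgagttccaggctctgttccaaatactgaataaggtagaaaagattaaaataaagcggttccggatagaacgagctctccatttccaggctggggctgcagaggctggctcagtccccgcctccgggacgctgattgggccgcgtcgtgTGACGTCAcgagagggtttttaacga
Csrnp1, chr9:119984743-119984992 (minus strand): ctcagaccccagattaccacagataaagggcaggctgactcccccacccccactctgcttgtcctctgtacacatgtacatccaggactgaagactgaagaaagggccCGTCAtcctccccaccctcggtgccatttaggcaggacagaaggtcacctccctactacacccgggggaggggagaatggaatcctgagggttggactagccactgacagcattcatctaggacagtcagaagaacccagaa
The Nr4a1 window held 4 core sites, the Arl4d window 3, of which 2 overlap as the full site, and the most upstream of the 4 Csrnp1 windows 1. A core site was present in 17.77% of all 32851 promoter windows, 4 or more in 0.137% of them (45 windows), and the full site in 1.55%. The cut of 4 equals the count in Nr4a1, and no share was taken for the 3 of Arl4d. Among the other genes chosen for this search, 1 core site each lay in the windows of Rpl13a and Rps16 and none in those of Fkbp5, Scn4b and Rps19. The E-box CACGTG, read the same on both strands, lay in the windows of Fkbp5 and Rpl13a and in 1 of 3 windows of Rps19, against 6.02% of all windows. The RBPJ site TTCCCA or TGGGAA, present in 21.59% of all windows, was in none of these most upstream windows, nor was CTTTT or CTTCC within 10 bases of any of their start sites. A match is a description of these letters and not of a bound site. Hes1 and Rpl3 were named for the same search and had no window to search.

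**Figure D2:**
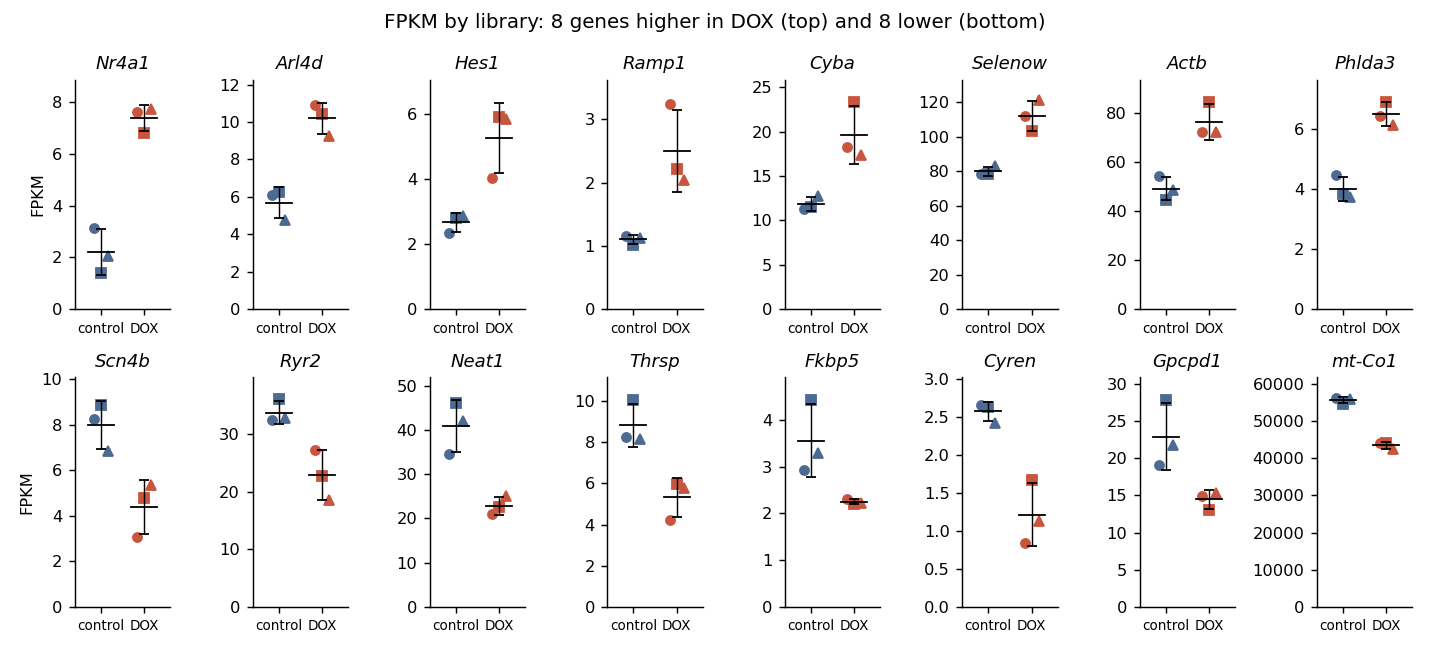
FPKM of 16 genes named in the text, in the 3 control libraries (blue) and 3 DOX libraries (red); circles, squares and triangles are replicates 1, 2 and 3, bars are the mean and 1 SD, and each axis starts at 0. In each panel the DOX and control libraries do not overlap, as in all 329 genes past the threshold, so this adds no support. Nr4a1 spans 1.39 to 3.15 in control and 6.82 to 7.72 in DOX.

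Genes of the Notch pathway, in which a cleaved receptor turns on transcription of Hes and Hey genes, are given by role, and the difference between roles was not tested. Among 12 tested genes other than receptors and ligands, 2 rose (2.23% of all genes) and 7 lay above control in all libraries (17.7%). All 12 had a positive log2 change (62.8% of all genes), with a median of 0.32. Beside Hes and Hey genes and Nrarp, these 12 included Rbpj, Maml1, Lfng, Mfng, Id1, Id2 and Id3, so not all are targets of the pathway. Among the 8 receptors and ligands none passed in limma, 1 was lower at an unadjusted p under 0.05, and their median was -0.04. The list median over both was 0.11. Hes1, a repressor of differentiation, stood at 2.35, 2.801 and 2.87 FPKM in control and 4.04, 5.92 and 5.86 in DOX (log2 change 0.76 with an SE of 0.12, adjusted p = 0.017), and its rise was 0.91 without DOX replicate 1. Id3, an inhibitor of basic helix-loop-helix factors, stood at 14.1, 13.1 and 13.7 FPKM in control and 19.8, 18.99 and 16.2 in DOX (log2 change 0.39 with an SE of 0.09, adjusted p = 0.0423), and did not pass under the 3 other scalings or without DOX replicate 1 (adjusted p = 0.0871). Hey1 and Heyl did not pass either (log2 change 0.38 and 0.42, adjusted p = 0.0777 and 0.0717).

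Glucocorticoid-responsive genes had a median below 0. Of 20 tested, 2 fell (0.4% of all genes) and none rose, and 5 lay below control in all libraries (5.1%). The median log2 change was -0.12, negative under each scaling. Signs were mixed: 13 genes had a negative log2 change and 7 a positive one, which 62.8% of all genes had. Among the 7 were Dusp1, Per1 and Sult1a1 (log2 change 0.51, 0.27 and 0.25), none of which passed. Fkbp5, a co-chaperone of the glucocorticoid receptor, stood at 2.94, 4.44 and 3.31 FPKM in control and 2.31, 2.21 and 2.23 in DOX (log2 change -0.48 with an SE of 0.11, adjusted p = 0.0443). Control replicate 2 was its highest library, and the 3 DOX libraries lay between 2.21 and 2.31 FPKM. Fam107a, an actin-associated gene, stood at 2.17, 1.53 and 1.999 FPKM in control and 1.002, 1.197 and 0.687 in DOX (log2 change -0.57 with an SE of 0.11, adjusted p = 0.0328). Zbtb16, a transcription factor of the same list, had a larger difference, at 11.7, 10.4 and 12.4 FPKM in control and 5.705, 5.18 and 1.98 in DOX (log2 change -1.32 with an SE of 0.36, adjusted p = 0.112), and did not pass the test. Its lowest library, DOX replicate 3, lay far below the other DOX libraries. Neither Fkbp5 nor Fam107a passed without DOX replicate 1 (adjusted p = 0.0711 and 0.0558) or in the fit of the 6 libraries. Fkbp5 also missed the threshold under median ratios and quantile normalization (adjusted p = 0.0578 and 0.0605), while Fam107a passed under all 3 other scalings. The clock repressor Nr1d1 stood at 7.29, 6.72 and 7.56 FPKM in control and 10.9, 10.3 and 14.2 in DOX (log2 change 0.64 with an SE of 0.13, adjusted p = 0.0389), the only 1 of 19 clock genes that passed, and it did not pass without DOX replicate 1 (adjusted p = 0.0623) or under any of the 3 other scalings (adjusted p = 0.0695 to 0.0744). Thrsp, a regulator of fatty acid synthesis, was the only one of 20 lipogenic and sterol genes that passed, at 8.27, 10.04 and 8.18 FPKM in control and 4.203, 5.96 and 5.79 in DOX (log2 change -0.64 with an SE of 0.14, adjusted p = 0.0449). Thrsp missed the threshold without DOX replicate 1 (adjusted p = 0.0775), under median ratios (0.0575) and under quantile normalization (0.058).

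Several genes of receptors and secreted factors rose. Ramp1, the subunit that makes the receptor for calcitonin gene-related peptide, stood at 1.16, 1.01 and 1.13 FPKM in control and 3.24, 2.21 and 2.05 in DOX (log2 change 0.72 with an SE of 0.12, adjusted p = 0.0171), and Nrtn, the neurotrophic factor neurturin, at 6.38, 5.097 and 5.97 FPKM in control and 11.9, 8.76 and 9.397 in DOX (log2 change 0.69 with an SE of 0.11, adjusted p = 0.0171). In both the highest library was DOX replicate 1, and both kept a rise without it (log2 change 0.58 and 0.57, adjusted p = 0.0275 and 0.0308). C1qtnf4, a secreted relative of adiponectin, stood at 1.31, 0.915 and 1.09 FPKM in control and 3.89, 1.902 and 2.19 in DOX (log2 change 0.76 with an SE of 0.17, adjusted p = 0.0478). It passed under none of the 3 other scalings (adjusted p = 0.0605 to 0.0827) and in 1 of 9 fits that left out a library. Of 34 genes of growth factor signalling 3 rose. They were Ccn2, a matrix-associated protein induced by TGF-beta and Hippo signalling, the insulin receptor substrate Irs2 and the lymphatic growth factor Vegfc. Ccn2 stood at 14.1, 11.9 and 15.6 FPKM in control and 21.1, 21.3 and 20.4 in DOX (log2 change 0.57 with an SE of 0.11, adjusted p = 0.0327). None of the 3 passed under the 3 other scalings or without DOX replicate 1. Outside the lists, and chosen after their values were seen, Fgf16, Pdgfa and the angiotensin receptor gene Agtr1a also rose, by 0.57, 0.48 and 0.48 on the log2 scale (adjusted p = 0.02, 0.0283 and 0.0449). Agtr1a stood at 6.35, 8.63 and 7.44 FPKM in control and 10.9, 11.1 and 10.2 in DOX.

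Genes of excitation and calcium release were among the coding genes that fell. Ryr2, the channel that releases calcium from the sarcoplasmic reticulum to trigger contraction, lies on chromosome 13 from 11553102 to 12106945 (GRCm38). It stood at 32.4, 36.005 and 32.8 FPKM in control and 27.3, 22.7 and 18.6 in DOX (log2 change -0.56 with an SE of 0.11, adjusted p = 0.0327). All 3 DOX libraries were below control, DOX replicate 3 the furthest. It was the only 1 of 23 calcium handling genes that passed. Atp2a2, the calcium pump that refills the store, did not pass (log2 change -0.16, adjusted p = 0.237), nor did its regulator Pln (-0.09, adjusted p = 0.493). Of 25 ion channel genes, Scn4b passed. This accessory subunit of the cardiac sodium channel stood at 8.26, 8.87 and 6.84 FPKM in control and 3.05, 4.79 and 5.33 in DOX (log2 change -0.76 with an SE of 0.16, adjusted p = 0.0406), with DOX replicate 1 the lowest, and its fall was 0.56 without that library (adjusted p = 0.0408). Scaling by median ratios or by quantiles left Scn4b short of the threshold (adjusted p = 0.0646 and 0.0657).

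In the sarcomere 2 of 30 genes rose, beside 2.23% of all genes, and none fell. The list median of 0.15 turned to -0.01 or -0.02 under quantile normalization and under scaling without mitochondrial genes. Myl2, the ventricular regulatory light chain, stood at 2240.4, 1908 and 2071 FPKM in control and 2426, 2792 and 2887 in DOX (log2 change 0.38 with an SE of 0.08, adjusted p = 0.0339), and troponin I, Tnni3, at 1061, 953 and 1024 FPKM in control and 1201, 1209.9 and 1277 in DOX (log2 change 0.28 with an SE of 0.06, adjusted p = 0.0412). Neither passed under any of the 3 other scalings. Of 14 Z-disc genes 11 had a positive log2 change, of 7 thick filament genes 6 and of 9 thin filament genes 7. Over all genes tested that share was 62.8%. Ttn, the elastic filament of the sarcomere, read 22.9, 24.6 and 24.4 FPKM in control and 21.4, 19.9 and 17.8 in DOX (log2 change -0.28, adjusted p = 0.0829), and Xirp2 24.9, 22.8 and 23.4 FPKM in control and 18.1, 20.9 and 16.7 in DOX (-0.34, adjusted p = 0.0551). Neither passed, and in both the groups did not overlap.

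Of 12 tested stress and fetal genes, which are much used to follow cardiac injury, Ccn2 alone passed, beside 2.23% of all genes that rose. The list median of 0.20 was 0.11 without DOX replicate 1. Nppa, atrial natriuretic peptide, stood at 93.95, 51.2 and 147 FPKM in control and 1736, 288 and 195 in DOX (log2 change 2.36 with an SE of 0.91, adjusted p = 0.249). DOX replicates 2 and 3 were above all 3 control libraries in Nppa as well, by a smaller margin. Without Nppa, the atrial markers summed to 24.4 and 21.4 FPKM in these 2 libraries, against 18.1 to 21.1 in control. Myl7 stood at 0.764 and 0.737 FPKM in them and at most at 0.151 in control. The part of atrial transcripts in the Nppa difference was not tested. Nppb, the B-type peptide, read 224, 84.004 and 236 FPKM in control and 106, 288 and 439 in DOX (adjusted p = 0.732), and its groups overlapped. Acta1, the skeletal actin of the fetal program, read 257, 209 and 122 FPKM in control and 66.5, 169.7 and 98.1 in DOX (adjusted p = 0.339), and Myh7, the slow myosin, 61.7, 77.1 and 68.5 FPKM in control and 81.3, 70.4 and 77.3 in DOX (adjusted p = 0.436). Gdf15, a stress-induced cytokine, lay under the expression minimum, at 0.0564 to 0.552 FPKM.

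Among the 27 tested genes of anthracycline handling 2 rose, both reductases of carbonyl groups, beside 2.23% of all genes. Akr1a1 stood at 39.9, 35.6 and 39.9 FPKM in control and 47.4, 50.02 and 49.9 in DOX (log2 change 0.35 with an SE of 0.07, adjusted p = 0.0383), and Cbr3 at 0.945, 0.918 and 1.04 FPKM in control and 1.61, 1.48 and 1.42 in DOX (log2 change 0.35 with an SE of 0.08, adjusted p = 0.0478). Neither passed under the 3 other scalings or without DOX replicate 1. Cbr1, the reductase best known for making doxorubicinol, did not pass (log2 change 0.11, adjusted p = 0.698). None of 7 tested topoisomerase genes and their repair enzymes passed, Top2b included (-0.11, adjusted p = 0.608), and Top2a lay under the expression minimum. None of 10 transporters passed. At an unadjusted p under 0.05, 0 topoisomerase genes and 1 transporter gene, higher in DOX, were counted. Of 31 tested p53 targets and DNA damage genes 2 rose, beside the same 2.23%. Phlda3, a p53-induced repressor of Akt, stood at 4.46, 3.82 and 3.72 FPKM in control and 6.44, 6.904 and 6.14 in DOX (log2 change 0.58 with an SE of 0.08, adjusted p = 0.015) and passed under all 3 other scalings. Ephx1, an epoxide hydrolase, stood at 9.98, 11.02 and 9.87 FPKM in control and 14.03, 14.1 and 14.7 in DOX (log2 change 0.44 with an SE of 0.07, adjusted p = 0.015), and did not pass under scaling without mitochondrial genes (adjusted p = 0.0598). The list median was 0.03, close to that of all genes. Ogg1, the glycosylase that removes oxidized guanine, was chosen after its values were seen and read 1.42, 1.44 and 1.21 FPKM in control and 1.92, 1.94 and 1.95 in DOX (log2 change 0.32 with an SE of 0.07, adjusted p = 0.0423).

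Of 40 antioxidant genes and NRF2 targets, 4 rose and none fell. Their median log2 change was 0.11, and it turned to -0.01 and -0.05 under quantile normalization and under scaling without mitochondrial genes. Of 11 glutathione transferase genes in the list 3 rose. Mgst3, a microsomal transferase, stood at 123, 121 and 128 FPKM in control and 176, 179.8 and 191 in DOX (log2 change 0.55 with an SE of 0.09, adjusted p = 0.02). Selenow, a small selenoprotein of muscle, stood at 78.6, 78.3 and 82.9 FPKM in control and 112, 104 and 121 in DOX (log2 change 0.48 with an SE of 0.07, adjusted p = 0.015), and passed under all 3 other scalings. Gstp1 and Gstm2 rose by 0.42 and 0.37 on the log2 scale (adjusted p = 0.0284 and 0.0327). Mgst1 had a value of the other sign and did not pass (log2 change -0.36, adjusted p = 0.204). Under quantile normalization Mgst3, Gstp1 and Gstm2 did not pass (adjusted p = 0.0657, 0.0601 and 0.139). Gstp1 also missed the threshold under scaling without mitochondrial genes (0.08), and Gstm2 under each of the 3 other scalings. Sod1 and Prdx2, which remove superoxide and peroxide, lay above control in all libraries and did not pass (adjusted p = 0.0739 and 0.0727). The classical NRF2 target Nqo1 did not pass (log2 change 0.20, adjusted p = 0.498). Cyba, the membrane subunit p22phox shared by superoxide-producing NADPH oxidases, stood at 11.3, 11.5 and 12.8 FPKM in control and 18.2, 23.3 and 17.3 in DOX (log2 change 0.67 with an SE of 0.11, adjusted p = 0.0195). Gpx4, which reduces lipid peroxides, and Fth1, the ferritin heavy chain, did not pass (adjusted p = 0.4 and 0.117).

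Cytosolic ribosomal proteins formed the largest group. Of 79 genes, 46 rose (2.23% of all genes) and none fell, and 72 lay above control in all libraries (17.7%). The median log2 change was 0.37, positive under each scaling (0.21 to 0.31). The counts were 27 of 47 in the large subunit and 19 of 32 in the small. They made up 1.07, 0.929 and 1.03% of all FPKM in control and 1.38, 1.402 and 1.45% in DOX. Rps19, the member with the smallest p, stood at 14.3, 14.3 and 15.4 FPKM in control and 21.8, 23.5 and 23.6 in DOX (log2 change 0.61 with an SE of 0.07, adjusted p = 0.014), and Rpl3 at 27.2, 25.5 and 26.8 FPKM in control and 43.7, 48.5 and 38.6 in DOX (log2 change 0.69 with an SE of 0.09, adjusted p = 0.015). Of 92 genes named as ribosomal protein pseudogenes, 14 rose, with a median of 0.34. Rpl38-ps2 stood at 32.3, 29.8 and 30.1 FPKM in control and 58.5, 46.5 and 49.1 in DOX (log2 change 0.72 with an SE of 0.09, adjusted p = 0.015). Such copies share reads with their parent genes, so their single values are uncertain. The muscle paralogue Rpl3l did not pass (log2 change 0.06, adjusted p = 0.698), while Rpl22l1 rose by 0.46 (adjusted p = 0.0452) and passed under no other scaling.

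Other lists of protein synthesis and turnover had fewer genes past the threshold. Of 41 translation factors 5 rose, among them Eef1a1 at 205, 194 and 205 FPKM in control and 333, 289.98 and 244 in DOX (log2 change 0.51 with an SE of 0.10, adjusted p = 0.0331) and Eif3f (0.43, adjusted p = 0.0204). Under scaling without mitochondrial genes neither passed (adjusted p = 0.118 and 0.0816), nor did Eef1a1 under quantile normalization (0.156). The list median of 0.17 stayed positive under each scaling, down to 0.01 without mitochondrial genes. Of 36 proteasome genes Psmb6 and Psmd13 rose, neither of which passed under another scaling, with a list median of 0.09 that fell to just below 0 under quantile normalization and to -0.06 without mitochondrial genes. None of the 32 chaperones and none of the 29 genes of the integrated stress response and endoplasmic reticulum stress passed in limma. At an unadjusted p under 0.05 the counts were 2 higher and 4 lower in the first list and 1 higher and 1 lower in the second, against 14.6% and 3.47% of all genes. Of 19 autophagy genes, whose median of 0.03 was near that of all genes, Map1lc3a and Gabarap rose by 0.35 and 0.32 (adjusted p = 0.0243 and 0.0291). Neither passed under the 3 other scalings (adjusted p = 0.0694 to 0.143). The atrophy ligase Fbxo32 did not pass (log2 change -0.36, adjusted p = 0.348).

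**Figure D3:**
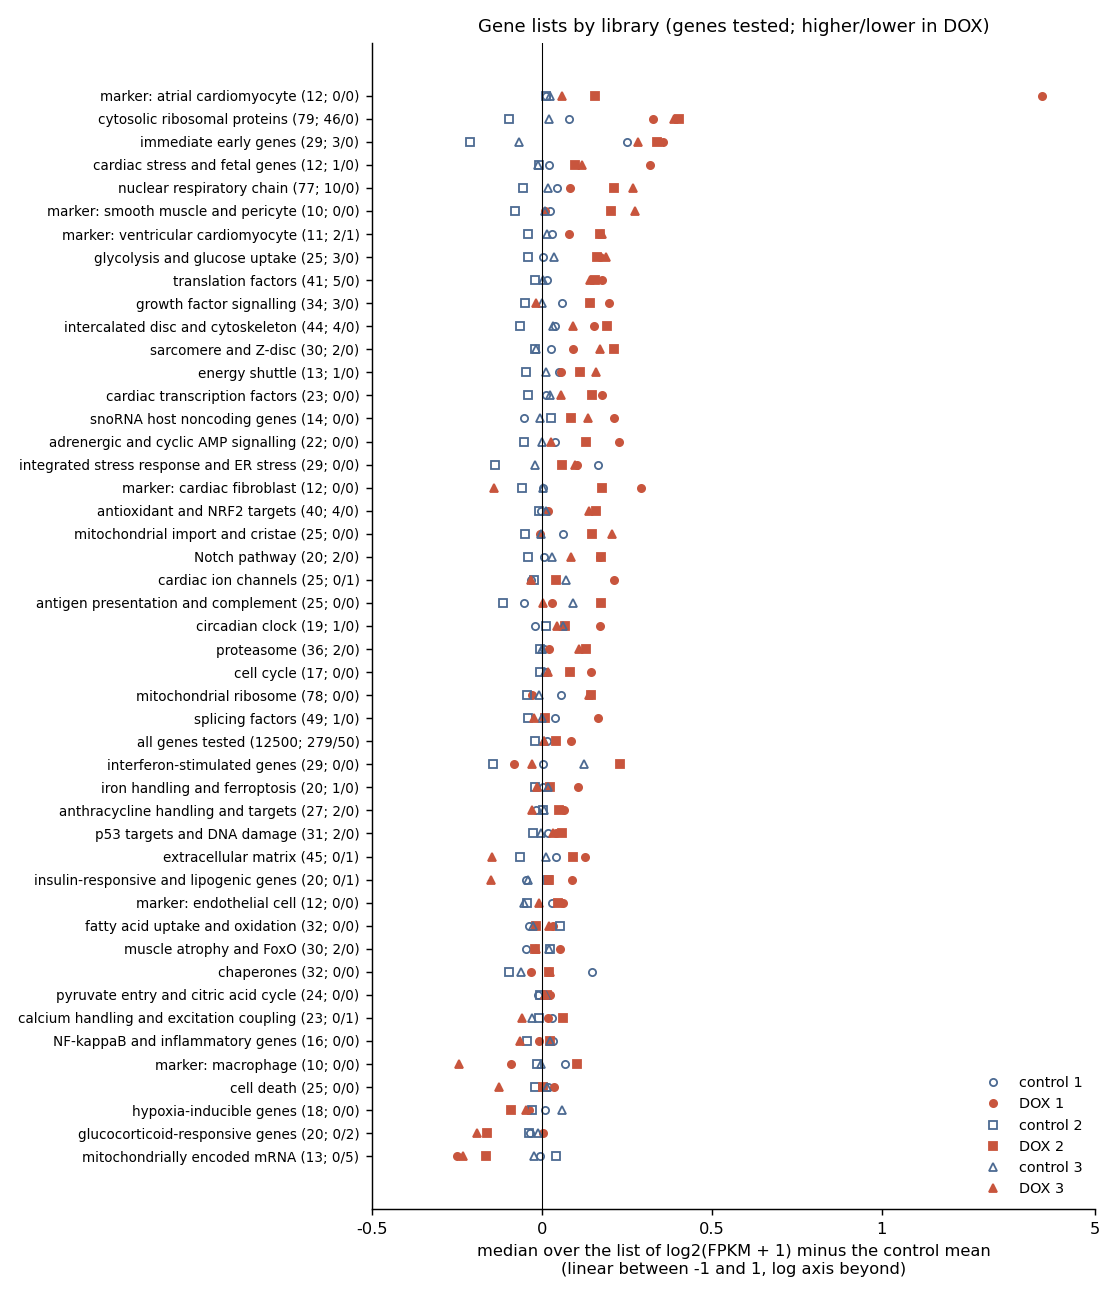
Rows are the gene lists with at least 10 genes tested, and each mark is a library's median over the list of log2(FPKM + 1) minus the control mean (linear from -1 to 1, log axis beyond; open blue control, filled red DOX); labels give genes tested and genes higher and lower in DOX. Ribosomal proteins and nuclear respiratory chain genes lie right of all control libraries in all 3 DOX libraries, mitochondrially encoded mRNA lies left, and the atrial list is far right only in DOX replicate 1.

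The respiratory chain is built from 2 genomes, and the lists of their mRNAs had medians of opposite sign as deposited. Of the 13 mRNAs encoded in mitochondria, 5 fell (0.4% of all genes) and none rose, and 11 lay below control in all libraries (5.1%). The median was -0.23. It was -0.29 under median ratios, -0.39 under scaling without mitochondrial genes and 0 under quantile normalization, which sets the most abundant transcripts of every library equal and under which none of the 5 passed. The mRNA of cytochrome oxidase subunit I, mt-Co1, stood at 56255, 54782 and 56132 FPKM in control and 44065, 44080.1 and 42523 in DOX (log2 change -0.36 with an SE of 0.05, adjusted p = 0.0158). mt-Nd4l, mt-Nd5, mt-Nd6 and mt-Atp8 fell by 0.40, 0.35, 0.29 and 0.47 on the log2 scale, while mt-Co2 had a log2 change of -0.01 (adjusted p = 0.968). Several mitochondrial transfer RNA genes fell too, such as mt-Tl1 at 1828, 1910.2 and 2189 FPKM in control and 1344, 1333 and 1227 in DOX (log2 change -0.60 with an SE of 0.09, adjusted p = 0.0158). Transcripts this short are poorly captured by libraries made from polyadenylated RNA. Of 77 nuclear respiratory chain genes, 10 rose and none fell, and the median was 0.19 (0.13, 0.05 and 0.03 under median ratios, quantile normalization and scaling without mitochondrial genes). Complex I had 6 of 37 higher, complex V 2 of 14, complexes III and IV 1 of 9 and 1 of 13, and complex II 0 of 4. Ndufb8 of complex I stood at 113, 104 and 116 FPKM in control and 139, 162 and 157 in DOX (log2 change 0.46 with an SE of 0.08, adjusted p = 0.02), and the muscle isoform Cox6a2 of complex IV at 926, 873 and 900.2 FPKM in control and 1093, 1107 and 1119 in DOX (log2 change 0.30 with an SE of 0.05, adjusted p = 0.0243). Under median ratios none of the 77 passed, and Cox6a2 passed under no other scaling.

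Other mitochondrial lists had no gene past the threshold: 0 of 78 mitochondrial ribosomal proteins, 0 of 25 import and cristae genes, 0 of 32 genes of fatty acid use and 0 of 24 of pyruvate entry and the citric acid cycle in limma's test. At an unadjusted p under 0.05 the counts were 16 higher and 0 lower, 8 higher and 0 lower, 4 higher and 1 lower and 4 higher and 2 lower in the same order, against 14.6% and 3.47% of all genes. Glycolysis had 3 of 25 higher, Eno1, Eno3 and Tpi1, with log2 changes of 0.31, 0.36 and 0.38. None of the 3 passed under the other scalings. Outside the lists, 3 mitochondrial genes that fell are given after their values were seen. Oxct1, the enzyme that commits ketone bodies to oxidation, stood at 239, 246 and 239 FPKM in control and 182, 199 and 189 in DOX (log2 change -0.35 with an SE of 0.07, adjusted p = 0.0327). Tfb2m, which opens mitochondrial promoters for transcription, stood at 12.95, 13.8 and 13.6 FPKM in control and 10.1, 10.6 and 11.2 in DOX (log2 change -0.31 with an SE of 0.07, adjusted p = 0.0452). Pnpt1, a phosphorylase of mitochondrial RNA turnover, stood at 5.73, 5.64 and 4.98 FPKM in control and 4.34, 3.48 and 3.91 in DOX (log2 change -0.40 with an SE of 0.09, adjusted p = 0.0443). All 3 passed under each of the 3 other scalings.

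The list of cytoskeleton and cell junction genes is given by role, with no test between roles. Of 19 cytoplasmic actin, tubulin and associated genes, 4 rose and all 19 had a positive log2 change, beside 2.23% and 62.8% of all genes. The median of the 19 was 0.30. Actb, cytoplasmic beta-actin, stood at 54.2, 44.7 and 48.7 FPKM in control and 72.1, 84.7 and 72.3 in DOX (log2 change 0.62 with an SE of 0.11, adjusted p = 0.02), Actg1 at 59.6, 45.95 and 49.02 FPKM in control and 75.9, 85.9 and 75.6 in DOX (log2 change 0.61 with an SE of 0.10, adjusted p = 0.017) and the tubulin gene Tuba1b at 53.6, 38.1 and 51.1 FPKM in control and 74.6, 80.1 and 70.5 in DOX (log2 change 0.66 with an SE of 0.11, adjusted p = 0.0206). All 3 passed under each other scaling, while Pfn1 (log2 change 0.30, adjusted p = 0.0379) did not. None of 15 intercalated disc genes or 10 genes of the dystrophin complex passed, with medians of 0.07 and 0.03. At an unadjusted p under 0.05 limma counted 3 disc genes higher and 0 lower, and 1 of the dystrophin complex in each direction, against the same 14.6% and 3.47%. Over the 44 genes together the median was 0.15, or just below 0 under scaling without mitochondrial genes. Actb and Actg1 are often taken as loading controls, and both differed between these groups. In the extracellular matrix, none of 14 collagens passed (0 also at an unadjusted p under 0.05 in limma) and 1 of 31 other genes fell, the elastin crosslinking enzyme Loxl1 at 6.94, 7.31 and 7.09 FPKM in control and 6.09, 4.92 and 5.21 in DOX (log2 change -0.35 with an SE of 0.08, adjusted p = 0.047).

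No marker of a cell type other than heart muscle passed limma's test. The 12 endothelial markers summed to 254, 242 and 237 FPKM in control and 241, 252 and 246 in DOX, and the 12 macrophage markers to 182, 142 and 157 FPKM in control and 153, 170.2 and 134 in DOX. In the fibroblast list 0 of 12 passed, 3 were higher and 1 lower at an unadjusted p under 0.05, and the median was 0.12, or 0.08 without DOX replicate 1. Of 10 smooth muscle and pericyte markers 3 were higher and 0 lower at that unadjusted p, with a median of 0.17. Tagln, an actin-binding protein of smooth muscle, stood at 5.79, 4.45 and 8.32 FPKM in control and 11.2, 11.7 and 15.6 in DOX (log2 change 0.97 with an SE of 0.24, adjusted p = 0.0855), and Myh11, the smooth muscle myosin, at 2.53, 2.42 and 3.33 FPKM in control and 4.27, 3.93 and 3.999 in DOX (log2 change 0.44 with an SE of 0.10, adjusted p = 0.0532). In both the groups did not overlap, and neither passed. Erythroid genes summed to 945, 449 and 396 FPKM in control and 331, 927 and 971 in DOX, and the order of libraries did not follow the groups. Neutrophil markers were low, with a sum of 7.92, 14.3 and 6.14 FPKM in control and 2.15, 6.54 and 3.27 in DOX. The 3 that could be tested, S100a8, S100a9 and Lcn2, were all lower at an unadjusted p under 0.05. Their median was -0.90, and none passed (adjusted p = 0.179, 0.144 and 0.115). The groups did not overlap in Lcn2. No gene passed among 29 interferon-stimulated, 16 NF-kappaB and 25 antigen presentation and complement genes tested. At an unadjusted p under 0.05 the counts were 1 higher and 1 lower, 0 higher and 1 lower and 1 higher and 1 lower in these lists. The part of the atrial and fibroblast transcripts of DOX replicate 1 in other results was not tested beyond leaving that library out.

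Among noncoding transcripts, Neat1, the scaffold of nuclear paraspeckles, stood at 34.5, 46.03 and 42.002 FPKM in control and 20.9, 22.6 and 24.95 in DOX (log2 change -0.81 with an SE of 0.11, adjusted p = 0.015), and was lower in all 3 DOX libraries. Malat1, its neighbour on chromosome 19 and also retained in the nucleus, read 41.7, 49.7 and 42.6 FPKM in control and 38.7, 25.2 and 27.9 in DOX (log2 change -0.55 with an SE of 0.23, adjusted p = 0.256), with no overlap between the groups. Other coding genes with the largest falls were Cyren, a regulator of DNA end joining, at 2.66, 2.63 and 2.42 FPKM in control and 0.843, 1.66 and 1.13 in DOX (log2 change -0.71 with an SE of 0.12, adjusted p = 0.0203), and Gpcpd1, a phosphodiesterase of glycerophosphocholine, at 19.1, 27.9 and 21.8 FPKM in control and 14.95, 13.02 and 15.4 in DOX (log2 change -0.62 with an SE of 0.12, adjusted p = 0.0316). Cyren had its lowest value in DOX replicate 1, and its fall was 0.58 without it (adjusted p = 0.0372). Map3k6, a stress-activated kinase, fell by 0.49 (adjusted p = 0.0294). Golga4, a golgin of the trans-Golgi that was chosen after its values were seen, fell too, at 23.5, 25.5 and 24.2 FPKM in control and 18.9, 16.7 and 16.3 in DOX (log2 change -0.47 with an SE of 0.07, adjusted p = 0.015). Galk1, the first enzyme of galactose use, rose, at 2.83, 2.76 and 3.73 FPKM in control and 5.06, 5.57 and 5.62 in DOX (log2 change 0.65 with an SE of 0.10, adjusted p = 0.017).

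The direction of change varied with transcript length. In 5 classes of near-equal size of coding genes, from shortest to longest, the median log2 change was 0.13, 0.07, 0.04, 0.02 and -0.02. Rises numbered 133, 53, 19, 12 and 3 and falls 4, 3, 8, 6 and 6 in the same order. The coding genes that rose had a median length of 1647 bases and those that fell 3681, against 3366 for all. Across the 10867 genes with a length, Spearman's rho of log2 change was -0.34 with length and 0.25 with GC content, as a description across genes, which are not independent replicates. DOX libraries differed in this respect. In the longest class the median deviation from the control mean was 0.08, -0.02 and -0.11 in DOX replicates 1, 2 and 3, and in the shortest class 0.10, 0.16 and 0.15. Ribosomal protein genes are short, with a median of 1059 bases and 65 of 79 in the shortest class, while Ryr2 at 16814 bases and Golga4 at 7583 are long. When each library was corrected for its trend on length and GC, an alternative chosen after seeing the data, 18 genes were higher and 19 lower. The median of ribosomal proteins was then 0.25 with 8 higher, and that of nuclear respiratory chain genes 0.07 with none. Ryr2 (log2 change -0.49, adjusted p = 0.0373), Nr4a1 (1.34, adjusted p = 0.0207), mt-Co1 (-0.40, adjusted p = 0.0186) and Rps19 (0.55, adjusted p = 0.0207) still passed. Actb, Hes1, Arl4d, Phlda3 and Neat1 lay just above the threshold, at adjusted p = 0.0509 to 0.0574. Why length moved with the groups was not tested.

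**Figure D4:**
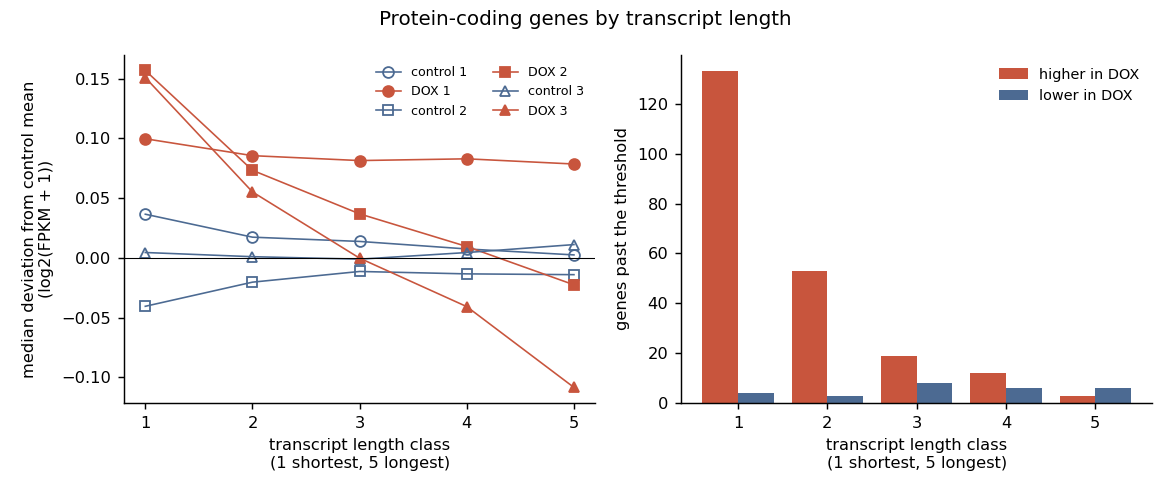
Left, median deviation of coding genes from the control mean (log2(FPKM + 1)) by transcript length class and library; right, genes past the threshold in each class. DOX replicates 2 and 3 decline from 0.16 and 0.15 in the shortest class to -0.02 and -0.11 in the longest, DOX replicate 1 stays between 0.08 and 0.10, and rises drop from 133 to 3.

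The balance of rises and falls depended on scaling. As deposited, 84.8% of the genes that passed were higher in DOX. The share was 63.6% under median ratios (110 higher, 63 lower), 53.1% under quantile normalization (76 and 67) and 22.6% under scaling to a sum that left out mitochondrial genes and nuclear copies of them (61 and 209), where the median over all genes was -0.07 in place of 0.04. The median of all genes is thus itself part of what scaling sets, and a rise or fall here is relative to the deposited total. Of the 329 genes, 52 higher and 33 lower passed under all 3 other scalings as well. The 52 included 16 ribosomal protein genes, 14 pseudogenes and 21 other coding genes, such as Nr4a1, Hes1, Arl4d, Ramp1, Nrtn, Cyba, Selenow, Phlda3, Galk1, Actb, Actg1 and Tuba1b. The 33 included 22 coding genes, such as Ryr2, Golga4, Oxct1, Tfb2m, Pnpt1, Loxl1, Fam107a, Cyren, Gpcpd1 and Map3k6, and 5 mitochondrially encoded genes. These 5 were the transfer RNA genes mt-Tl1, mt-Tw, mt-Ty, mt-Tm and mt-Tq, and none was a mitochondrial mRNA. None of the 5 passed after the correction for length and GC. After the correction for length and GC as well, 12 higher and 11 lower remained, among them Nr4a1, Rps19, Rpl3 and Rpl13a, and Ryr2, Golga4, Map3k6 and Loxl1. In the fit of the 6 libraries Ryr2 and Loxl1 missed the threshold (adjusted p = 0.0789 and 0.0919), and of the 9 fits that left out a library Ryr2 passed in 3 and Loxl1 in 1.

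**Figure D5:**
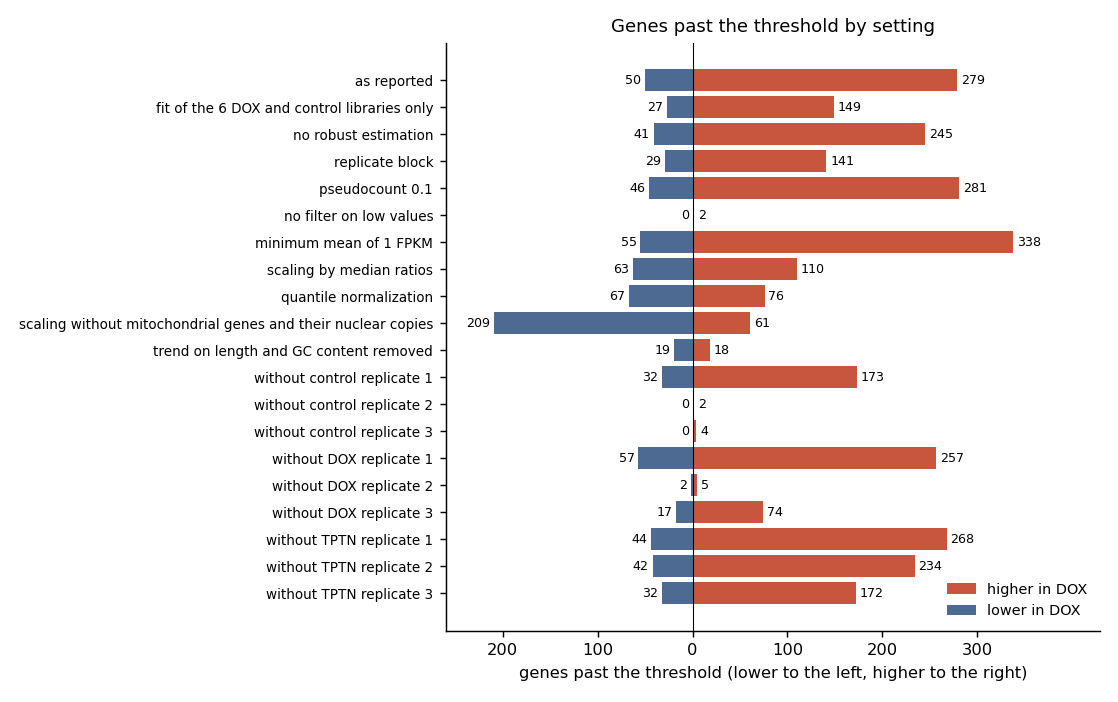
Genes past the adjusted p threshold under each setting, higher in DOX to the right and lower to the left, with the setting as reported at the top. The bars shrink to 2 and 0 without control replicate 2 or without a filter, and scaling without mitochondrial genes turns the balance to 61 higher and 209 lower.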

How the data were processed

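RNA sequencing of polyadenylated, strand-marked libraries from mouse heart was deposited as 1 table, and per the file headers its values are FPKM for each library. The authors' FPKM were made with cutadapt 1.9, HISAT2 2.0.4 and StringTie 1.3.4d on GRCm38, per the submitters' processing notes, which also name DESeq2 and edgeR without their roles. The table was used without counts, so depth enters no interval, and a change in very abundant transcripts moves all other FPKM the opposite way. The deposited p-value, q-value and significance columns were not used.

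Genes averaging 0.5 FPKM or more over the 9 libraries were kept and log2(FPKM + 1) was modelled in limma 3.58.1 (R 4.3.3) as a single fit of group means with a mean-variance trend and robust estimation, on 6 residual degrees of freedom. The contrast was DOX minus control, the test was of either direction, and p-values were adjusted over all 12500 genes by Benjamini-Hochberg. A log2 change on this scale understates that of genes with low FPKM. The procedure was tested on simulated data. Groups were taken from the labels, and the replicate numbers were not treated as pairs in the main fit. Other settings were a fit of 6 libraries, estimation that is not robust, a block for the replicate number, another pseudocount, other filters, 3 other scalings, each library left out and, added after seeing the data, removal of the trend on length and GC content.

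The comparison, its 57 gene lists (14 of them cell type markers) and the rule for named genes were chosen with earlier results of these data known. The rule takes the 15 largest rises and falls past the threshold whose groups do not overlap, where either group averages 2 FPKM or more, up to 4 members of each list by p and any list member past the threshold. Genes outside it are named as chosen after their values were seen. Some genes picked by the rule are not reported here. Positions, lengths and types of genes are those of GENCODE M21 (GRCm38), and promoter sequences are from RefSeq. Python 3.11.15, pandas, numpy and matplotlib were used for tables and plots.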

Additional observations from a re-analysis of the deposited data

How the results depend on the processing

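The counts of 279 higher and 50 lower genes came to 149 and 27 in a fit of the 6 DOX and control libraries, 2 and 0 with no filter on low values, 110 and 63 under median ratios, 76 and 67 under quantile normalization, 61 and 209 when mitochondrial genes and their copies were left out of the scaling, and 18 and 19 after the length and GC trend was removed. With the replicate number as a block they were 141 and 29. Correlations of deviations were -0.005, -0.113 and 0.009 between samples of the same number, and -0.057 to 0.069 between samples of different numbers. With 3 samples per group these values cannot decide whether the numbers pair the samples. Leaving out 1 library gave 2 to 268 higher and 0 to 57 lower genes. The list median of ribosomal proteins was 0.237 under quantile normalization, 0.213 without mitochondrial genes in the scaling and 0.246 with the trend removed. For mitochondrially encoded mRNA, median ratios gave -0.291, quantile normalization 0 and the scaling without mitochondrial genes -0.392, and for the nuclear respiratory chain the median was 0.0495 and 0.0308 under the last 2 of these and 0.0663 with the trend removed. Medians that changed sign included, beside those of the sarcomere and proteasome given above, those of antioxidant genes (-0.00757 under quantile normalization and -0.0515 without mitochondrial genes in the scaling) and of disc and cytoskeleton genes (-0.0035 under the latter). The causes were not tested.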
